A study of Drosophila melanogaster with 6 samples.

Results

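The proteasome is the protease complex that degrades ubiquitin-tagged proteins in every eukaryotic cell, and its subunit transcripts were followed here in late blastoderm embryos of Drosophila. The subunit genes were chosen by name and identifier: the 6 ATPases Rpt1 to Rpt6 and 12 Rpn subunits of the 19S regulatory particle, and the 7 alpha and 7 beta subunits of the 20S core particle. The proposal to describe them was made by readers who already knew how the same 6 libraries compared, so every value of the contrast between groups is given as a description and supports nothing by itself. All 32 genes were found among the 9073 genes listed in the deposited table, and each had reads in all 6 libraries. Rpn3 was present under its older identifier CG10484.

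The 20S core is a barrel of stacked rings. The outer alpha rings gate the entrance, and the inner beta rings hold the active sites in Prosbeta1 (caspase-like), Prosbeta2 (trypsin-like) and Prosbeta5 (chymotrypsin-like). The 19S particle sits on the barrel. Chiefly from work in yeast and mammals, the Rpt ring of its base unfolds substrates and threads them into the core, Rpn1 and Rpn2 are large scaffolds, Rpn10 and Rpn13 bind ubiquitin chains, and the lid carries Rpn11, the enzyme that removes ubiquitin before degradation. Embryos at this stage contain transcripts loaded into the egg by the mother as well as transcripts from their own genome, and poly(A) RNA from whole embryos does not separate them.

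The 3 dsRNA libraries came from Oregon R wild-type embryos injected with double-stranded RNAs against even-skipped (eve) and runt (run) at 1 µg/µl each, and the 3 water libraries from Oregon R embryos injected with water alone. Both genes encode transcription factors of the pair-rule class, and the comparison was made to find genes that depend on them. All embryos were 0 to 1 h old when taken at 25 °C and injected, developed at 18 °C up to the stage just before the ventral furrow forms, and were pooled at about 50 per library. RNA interference by injection acts in the whole embryo, and fewer cells of a type cannot be told apart from less RNA per cell in such pools. The labels do not say whether replicates came from separate parents or days; the p-values therefore measure only how these collections vary, which may be technical.

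Gene reads numbered 23234425 to 49364110 per library. Levels are normalised read counts on the authors' scale. The targeted gene run stood at 1975, 1922 and 1733 in dsRNA replicates 1, 2 and 3, against 3131, 2220 and 3557 in water replicates 1, 2 and 3. The targeted gene eve stood at 2922, 2727 and 2325 in the dsRNA libraries, against 2827, 1699 and 3075 in the water libraries, so the dsRNA values lay within the range of the water values. Wherever dsRNA libraries are named, they are the libraries labelled as injected with both dsRNAs. All 12 zygotic markers of the late blastoderm and all 17 maternally loaded markers were detected, and of 7 eggshell and yolk-protein markers Yp3 alone was listed, at 3.86 to 10.9. Water replicate 2 stood apart on the first principal component, at 60.6 against −27.7 to 5.61 for the others. It held more RNA of all 17 maternal markers and less of 11 of the 12 blastoderm markers than both other water libraries.

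Levels were compared between subunits per kilobase of exon, using exon lengths of the BDGP6 annotation. On that scale 13 of the 14 core transcripts stood close together, at 8181 to 14974 normalised counts per kilobase as means of the 6 libraries. The highest was Prosbeta6 (CG4097), a beta subunit without an active site, at 14974 ± 693 (SD, n = 6 libraries), and the lowest of the 13 was the alpha-ring subunit Prosalpha3 (CG9327) at 8181 ± 905. Each of the 11 highest members, all of the core, overlapped in its range over the 6 libraries with the next one in the order. Within single libraries, 2 of these 11 pairs of neighbours kept their order in all 6 (Prosbeta6 above Prosalpha4, and Prosbeta4 above Prosbeta3), and the other 9 did not.

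**Figure D1:**
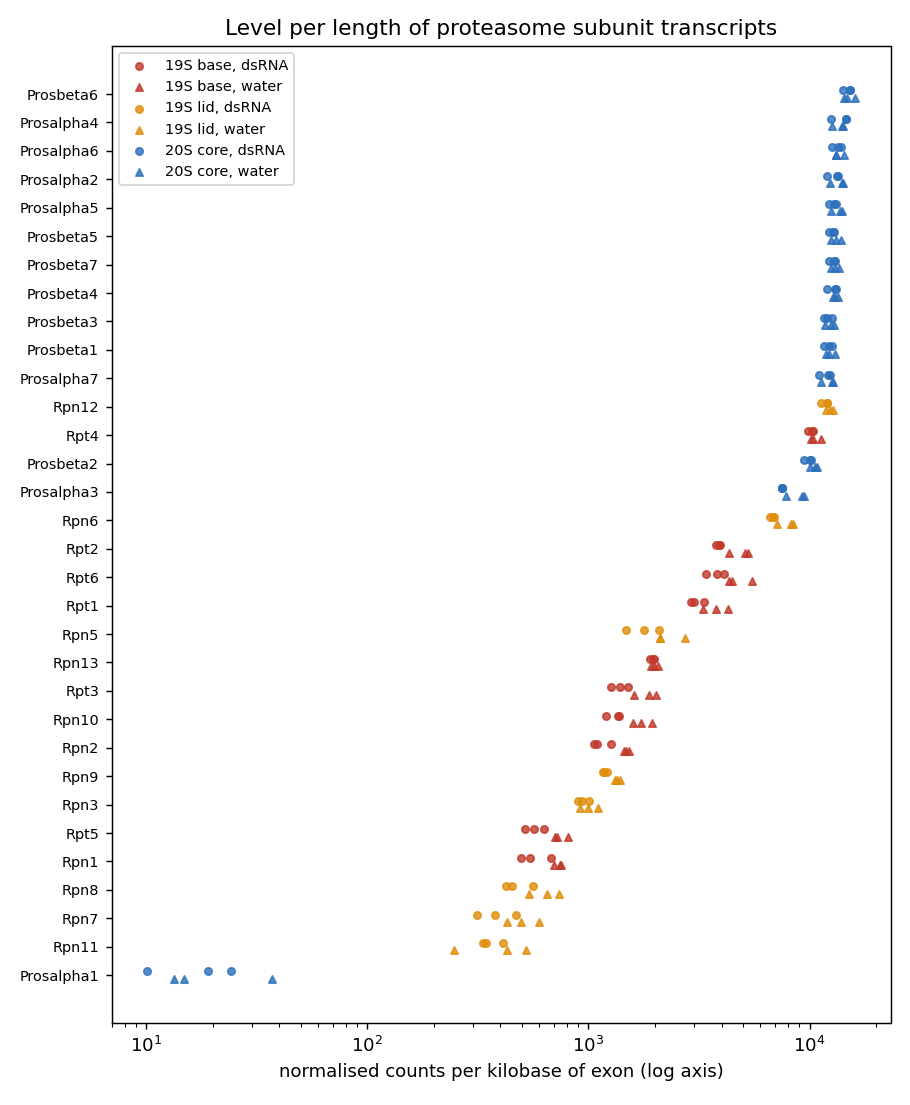
Level per length of the 32 proteasome subunit transcripts in each of the 6 libraries, in normalised counts per kilobase of exon on a log axis, with members ordered by their mean; circles are dsRNA libraries and triangles are water libraries, coloured by subcomplex. The 20S core transcripts other than Prosalpha1 lie between 8181 and 14974 as means, and 15 of the 18 19S transcripts lie at or below 4377.

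The 19S transcripts spread far more widely. In the base the highest was the ATPase Rpt4 (CG3455) at 10384 ± 467 per kilobase (SD, n = 6 libraries) and the lowest was the scaffold Rpn1 (CG7762) at 651 ± 107. In the lid the highest was Rpn12 (CG4157), a small scaffold subunit, at 12032 ± 525, and the lowest was the deubiquitinase Rpn11 (CG18174) at 380 ± 93.9. Rpt4, Rpn12 and the lid scaffold Rpn6 (7355 ± 769) stood at or near core levels. The other 15 of the 18 19S transcripts lay between 380 and 4377 per kilobase, and no library of these 15 reached the lowest library of Rpn6. The ranges of neighbours in this lower part mostly overlapped; the steps below Rpt1, Rpn9, Rpn3 and Rpn11, like those below Rpn12, Prosbeta2 and Rpn6 higher up, were the exceptions, where the lowest library of one member lay above the highest library of the next. Within single libraries, 14 of all 31 pairs of neighbours kept their order in all 6.

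Prosalpha1 (CG18495), an alpha-ring subunit, stood apart from all other members, with 18.4, 23.4 and 9.78 normalised counts in dsRNA replicates 1, 2 and 3 and 14.4, 36.0 and 12.9 in water replicates 1, 2 and 3. These rest on 7 to 28 reads per library. A duplicate gene, Prosalpha1R (CG30382), lies 1734 bp away on the same chromosome arm (BDGP6 chromosome 2R) and stood at 1.06 to 5.15. Reads that aligned to several places were kept out of all genes and made up 12.4% to 14.8% of the table's reads. The part of the Prosalpha1 transcripts lost in that way was not tested, so its level is uncertain and is not read as a low level of the subunit.

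Together the 32 genes took 0.719%, 0.711% and 0.716% of gene reads in dsRNA replicates 1, 2 and 3, and 0.791%, 0.768% and 0.733% in water replicates 1, 2 and 3. The 20S core took 0.488%, 0.481% and 0.467% in dsRNA libraries and 0.512%, 0.488% and 0.473% in water libraries, so its groups overlapped. The base took 0.132%, 0.131% and 0.143% in dsRNA libraries and 0.163%, 0.162% and 0.150% in water libraries, with no overlap. The lid took 0.0989%, 0.0990% and 0.106% in dsRNA libraries and 0.115%, 0.118% and 0.110% in water libraries, again with no overlap. Compared within replicate numbers, which correlated across the groups, the share was lower in the dsRNA library in 3 of 3 pairs for the base, the lid and the core alike. Single genes were lower in every pair for 9 of 10 base genes, 6 of 8 lid genes and 10 of 14 core genes, against 14.4% of all genes.

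In a limma-trend fit over all 9073 genes, 0 of the 32 members passed the threshold of an adjusted p under 0.05 (Benjamini-Hochberg adjusted p = 0.999 for each). Over all genes 0.011% passed by that rule, which is 1 gene and no member. At an unadjusted limma p under 0.05, 12 members were lower in dsRNA embryos, where 1.2% of all genes were, and 0 members were higher, where 1.07% of all genes were. Limma-voom on recovered reads passed 0 members and had 13 lower at an unadjusted p under 0.05, where 1.53% of all genes were. On leaving out dsRNA replicate 1 the 12 became 6 (0.419% of all genes), and on leaving out dsRNA replicate 2 they became 5 (0.430% of all genes). Without water replicate 1 they became 7 (1.65% of all genes), and without water replicate 3 they became 9 (1.57% of all genes). Without water replicate 2 they became 10 (2.16% of all genes), and without dsRNA replicate 3 they became 13 (3.92% of all genes). The 3 dsRNA libraries lay below all 3 water libraries for 11 members, against 3.36% of all genes, and above them for 0 members, against 2.99% of all genes. Without water replicate 3, 20 members were lower without overlap, against 7.49% of all genes in that comparison of 3 libraries with 2. Since the genes were proposed with this contrast known, nothing is read from these counts. The median log2 fold change of dsRNA over water was −0.09 over the 32 members and −0.002 over all genes, and 31 of the 32 values were negative, against 50.5% of all genes. With TMM scaling 30 were negative, where the median of all genes was 0.02. With upper-quartile scaling 27 were negative, where that median was 0.03.

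By subcomplex the median log2 fold change was −0.35 for the 10 base genes, −0.21 for the 8 lid genes and −0.04 for the 14 core genes. The non-overlapping members were 7 of 10 in the base, 3 of 8 in the lid and 1 of 14 in the core, against 3.36% of all genes. Nothing is read from these counts either. Leaving out water replicate 2, the medians were −0.31, −0.21 and −0.04 in the same order. Leaving out dsRNA replicate 3, they were −0.42, −0.21 and −0.006. No test of the difference between subcomplexes was made.

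**Figure D2:**
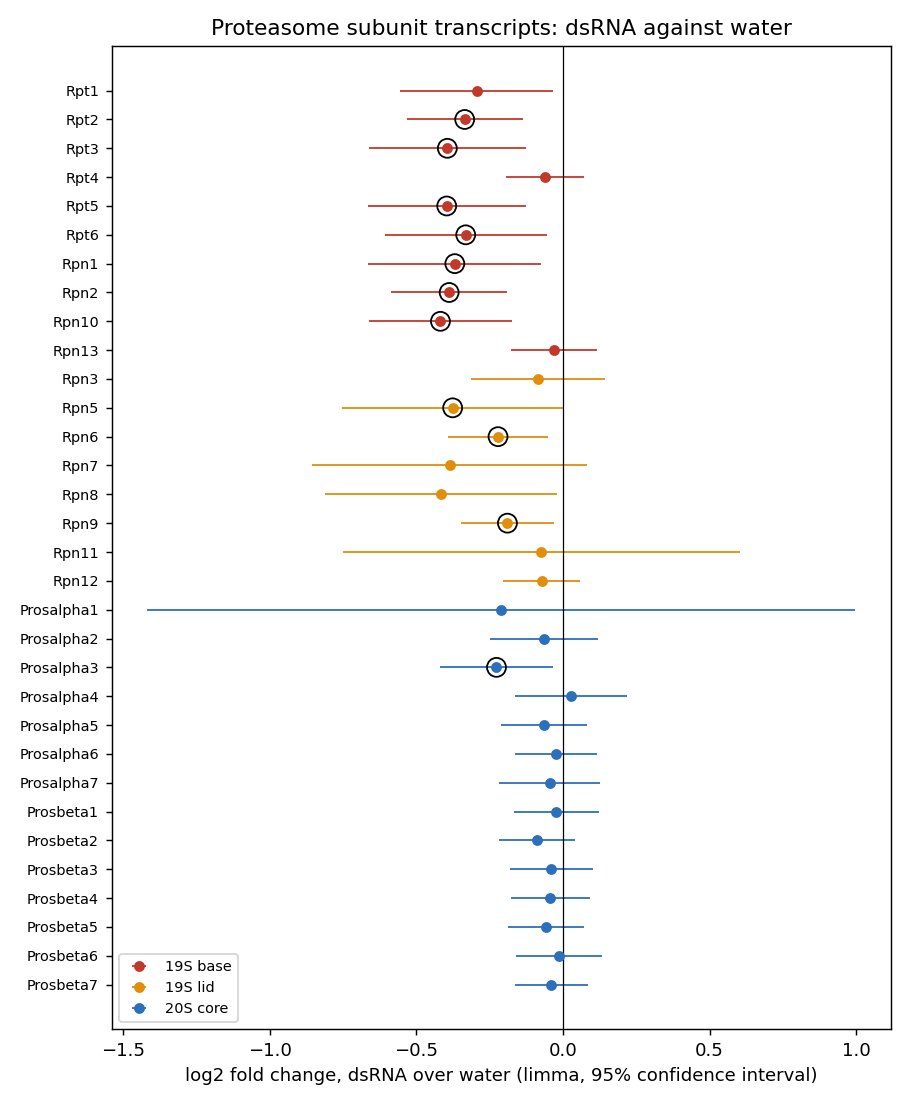
Log2 fold change of dsRNA over water for each of the 32 members, on the log2(normalised count + 1) scale, with the 95% confidence interval of the limma fit (n = 3 libraries per group), coloured by subcomplex; a black ring marks the 11 members whose 3 dsRNA libraries all lay below the 3 water libraries. Over all genes 3.36% had dsRNA libraries that all lay below the water libraries. Of the 10 base members 8 lie between −0.42 and −0.29, and core members other than Prosalpha1 and Prosalpha3 lie within 0.1 of 0.

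Of the 6 ATPase genes, 4 had dsRNA groups wholly below their water groups, against 3.36% of all genes. Rpt2 (CG5289), whose tail in yeast helps to open the gate of the core, lies on BDGP6 chromosome 3R at 23929873 to 23931558, minus strand. Its transcript stood at 6377, 6118 and 6341 in dsRNA replicates 1, 2 and 3 and at 8526, 8275 and 7039 in water replicates 1, 2 and 3. The dsRNA libraries lay close together and below every water library. Rpt2 averaged 6279 ± 140 in dsRNA embryos and 7947 ± 796 in water embryos (SD, n = 3 each), and the log2 fold change was −0.34 ± 0.08 (SE).

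Rpt3 (CG16916; chromosome X at 11125101 to 11126785, plus strand) stood at 1973, 2154 and 2346 in dsRNA libraries and at 2906, 3131 and 2488 in water libraries. Rpt5 (CG10370; chromosome 3R at 23752876 to 23754623, plus strand) stood at 918, 837 and 1021 in dsRNA libraries and at 1321, 1154 and 1174 in water libraries. Rpt6 (CG1489; chromosome X at 21316052 to 21317663, plus strand) stood at 4783, 5359 and 5751 in dsRNA libraries and at 6280, 7728 and 6051 in water libraries. In these 3 ATPase genes, as in Rpt2, no dsRNA library reached a water library, with log2 fold changes of −0.39 ± 0.11, −0.40 ± 0.11 and −0.33 ± 0.12 (SE). The distance was small for Rpt6, whose dsRNA replicate 3 and water replicate 3 lay next to each other.

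Rpt1 (CG1341) stood at 4412, 4531 and 5051 in dsRNA libraries and at 5737, 6491 and 4997 in water libraries, so that dsRNA replicate 3 passed water replicate 3 (log2 −0.29 ± 0.11, SE). Rpt4 (CG3455; chromosome X at 6289470 to 6291245, minus strand), the ATPase with the most abundant transcript, stood at 15250, 15048 and 14379 in dsRNA libraries and at 16449, 15227 and 14922 in water libraries. Its groups overlapped and its log2 fold change was −0.06 ± 0.06 (SE), with a 95% confidence interval of −0.19 to 0.07. This interval overlapped those of the other 5 ATPase genes, and no difference among them was tested.

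Among the scaffolds of the base, Rpn2 (CG11888; chromosome 3R at 29153524 to 29157255, plus strand), which holds Rpn13, had the lowest unadjusted p of all members. It stood at 3715, 3615 and 4307 in dsRNA libraries and at 5228, 5042 and 4917 in water libraries, with means of 3879 ± 374 in dsRNA embryos and 5062 ± 156 in water embryos (SD, n = 3 each). The log2 fold change was −0.39 ± 0.08 (SE; limma unadjusted p = 0.00247, adjusted p = 0.999). Rpn1 (CG7762; chromosome 3L at 19915051 to 19918160, plus strand), the docking site of shuttle factors, stood at 1654, 1502 and 2049 in dsRNA libraries and at 2256, 2134 and 2276 in water libraries. Both scaffolds had tight water groups and a dsRNA replicate 3 that lay nearest to water.

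The base has a pair of ubiquitin receptors. Rpn10 (CG7619; chromosome 3L at 21537000 to 21538582, plus strand) had the most negative log2 fold change of all members, −0.42 ± 0.10 (SE), from 1938, 1700 and 1959 in dsRNA libraries and 2755, 2461 and 2270 in water libraries. The mean was 25.2% lower in dsRNA embryos. Rpn13 (CG13349) stood at 3311, 3290 and 3174 in dsRNA libraries and at 3327, 3439 and 3224 in water libraries, a log2 fold change of −0.03 ± 0.06 (SE) with overlapping groups. Its 95% confidence interval was −0.18 to 0.12, and the difference between both genes was not tested.

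In the lid, 3 scaffold genes had lower dsRNA groups without overlap, against 3.36% of all genes. Rpn6 (CG10149; chromosome 2R at 14750166 to 14752910, minus strand), which clamps the lid to the core, stood at 13374, 12948 and 13251 in dsRNA libraries and at 16084, 16306 and 13865 in water libraries (log2 −0.22 ± 0.07, SE). Rpn9 (CG10230; chromosome 3R at 23731375 to 23733462, minus strand) stood at 1952, 1980 and 2029 in dsRNA libraries and at 2223, 2320 and 2253 in water libraries (log2 −0.19 ± 0.07, SE). Its values were among the most repeatable of the members, with a spread between replicates of 39.2 in dsRNA embryos and 49.9 in water embryos (SD, n = 3 each).

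Rpn5 (CG1100; chromosome 3R at 5789493 to 5791569, plus strand) stood at 2804, 3380 and 3960 in dsRNA libraries and at 3987, 5168 and 3982 in water libraries, so that its groups were separated by little (log2 −0.38 ± 0.16, SE, and −0.25 without dsRNA replicate 1). Rpn8 (CG3416), the partner of Rpn11, stood at 647, 692 and 863 in dsRNA libraries and at 822, 1124 and 994 in water libraries. Its log2 fold change of −0.42 ± 0.17 (SE) was as negative as that of Rpn10, yet its groups overlapped. Rpn7 (CG5378) likewise overlapped at 529, 437 and 658 in dsRNA libraries and 689, 597 and 828 in water libraries (log2 −0.39 ± 0.20, SE, and −0.24 without dsRNA replicate 2).

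The remaining lid genes lay near 0. Rpn12 (CG4157) stood at 11927, 11897 and 11181 in dsRNA libraries and at 12739, 12303 and 11784 in water libraries (log2 −0.07 ± 0.05, SE). Rpn3 (CG10484), a scaffold of the lid, had a log2 fold change of −0.09 ± 0.10 (SE). The catalytic subunit Rpn11 (CG18174; chromosome 2L at 5058404 to 5059790, minus strand) stood at 414, 404 and 494 in dsRNA libraries and at 519, 297 and 628 in water libraries. Water replicate 2 held less Rpn11 RNA than any other library, and the log2 fold change was −0.07 ± 0.28 (SE); the sign was positive on leaving out water replicate 1 (0.01) or water replicate 3 (0.15), and the value was −0.39 without water replicate 2.

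**Figure D3:**
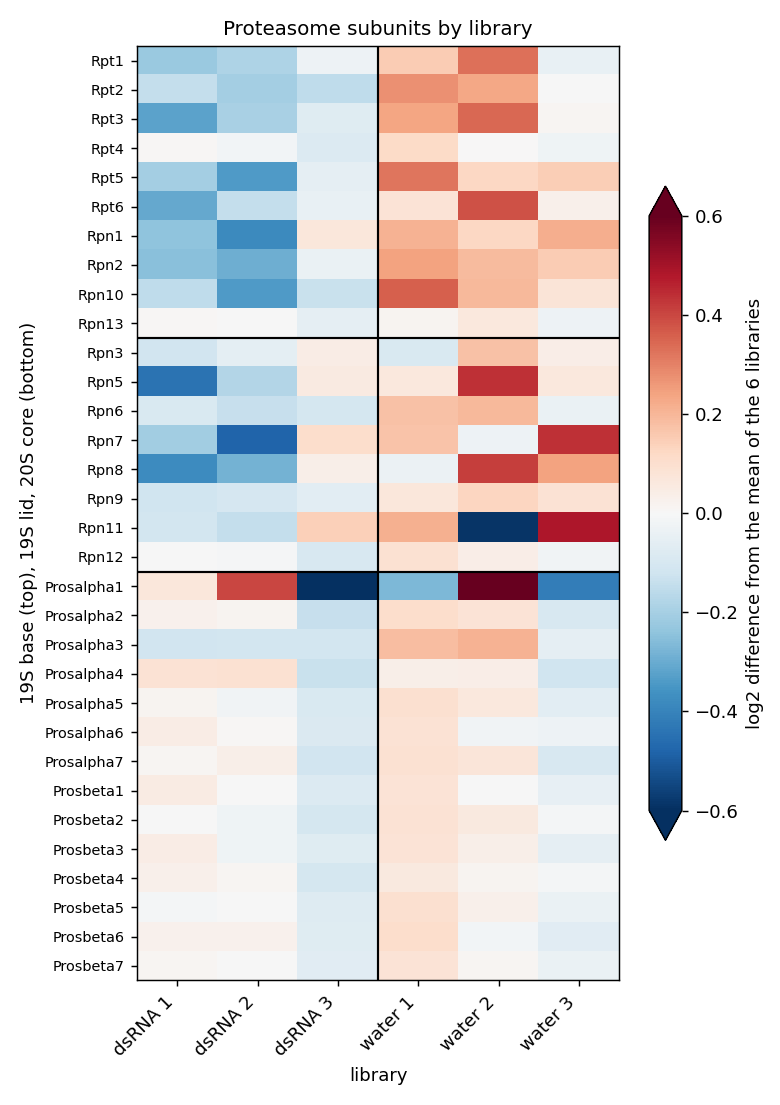
Log2 difference of each member from its own mean over the 6 libraries, with dsRNA libraries to the left and water libraries to the right of the vertical line and the 3 subcomplexes divided by horizontal lines; red is higher and blue is lower, and the scale is clipped at 0.6. Most base rows are blue in dsRNA replicates 1 and 2 and red in water replicates 1 and 2, and core rows other than Prosalpha1 are pale.

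In the core, 12 of the 14 genes had a log2 fold change between −0.09 and 0.03. Only Prosalpha3 had lower dsRNA groups without overlap (3.36% of all genes did). Prosalpha3 (CG9327; chromosome 2R at 20994900 to 20996118, plus strand) stood at 7304, 7333 and 7331 in dsRNA libraries and at 9009, 9161 and 7621 in water libraries. The 3 dsRNA libraries had an SD of 16.1 and lay below every water library (log2 −0.23 ± 0.08, SE). This was also the core gene with the lowest level per length after Prosalpha1, whose own log2 fold change of −0.21 ± 0.50 (SE) rests on few reads and was positive on leaving out water replicate 2 (0.24) or dsRNA replicate 3 (0.13).

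The active-site subunits had overlapping groups. Prosbeta1 (CG8392) stood at 10785, 10436 and 9879 in dsRNA libraries and at 11063, 10440 and 10083 in water libraries (log2 −0.02 ± 0.06, SE). Prosbeta2 (CG3329) had a log2 fold change of −0.09 ± 0.05 (SE) and Prosbeta5 (CG12323) one of −0.06 ± 0.05 (SE), both with overlapping groups. The confidence intervals of these 3 genes ran from −0.22 at the lowest to 0.12 at the highest. The interval of Rpn2 (−0.585 to −0.191) overlapped that of Prosbeta2 (−0.219 to 0.041). It lay below those of Prosbeta1 (−0.166 to 0.121) and Prosbeta5 (−0.187 to 0.071). Rpn2 is the member with the lowest unadjusted limma p, and all these genes share the same libraries. Separate intervals therefore do not compare Rpn2 with these genes, and no difference between them was tested.

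The core genes with the most abundant transcripts per length also overlapped. Prosbeta6 (CG4097) stood at 14384, 14362 and 13444 in dsRNA libraries and at 15180, 13964 and 13480 in water libraries (log2 −0.01 ± 0.06, SE). Prosalpha4 (CG3422) was the only member with a positive value, at 17188, 17244 and 14783 in dsRNA libraries and 16581, 16683 and 14931 in water libraries (log2 0.03 ± 0.08, SE). The signs of Prosbeta1, Prosbeta6, Prosalpha4, Prosalpha6, Prosalpha7 and, in the base, Rpn13 changed with the scaling of libraries or on leaving out 1 library, as listed with the alternatives, and no direction is given for them.

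The extremes of the core genes fell in the same libraries. Of the 14 core genes, 13 had their lowest level in dsRNA replicate 3 and 11 their highest in water replicate 1. Each gene was then centred on its mean over libraries (log2), and the median of the centred core values stood at 0.03, 0.003 and −0.10 in dsRNA replicates 1, 2 and 3 and at 0.09, 0.04 and −0.06 in water replicates 1, 2 and 3. Over all genes 15.5% were lowest in dsRNA replicate 3 and 9.88% were highest in water replicate 1.

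For the base the median centred value was −0.21, −0.20 and −0.05 in dsRNA replicates 1, 2 and 3 and 0.22, 0.19 and 0.02 in water replicates 1, 2 and 3. The lid stood at −0.12, −0.14 and 0.04 in dsRNA libraries and at 0.08, 0.15 and 0.07 in water libraries. In both, dsRNA replicate 3 and water replicate 3 lay close together, and dsRNA replicates 1 and 2 lay farthest below. Relative to the core in the same library, the base stood at −0.24, −0.20 and 0.05 in dsRNA libraries and at 0.13, 0.15 and 0.08 in water libraries. By this measure dsRNA replicate 3 was therefore nearly as high as water replicate 3.

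**Figure D4:**
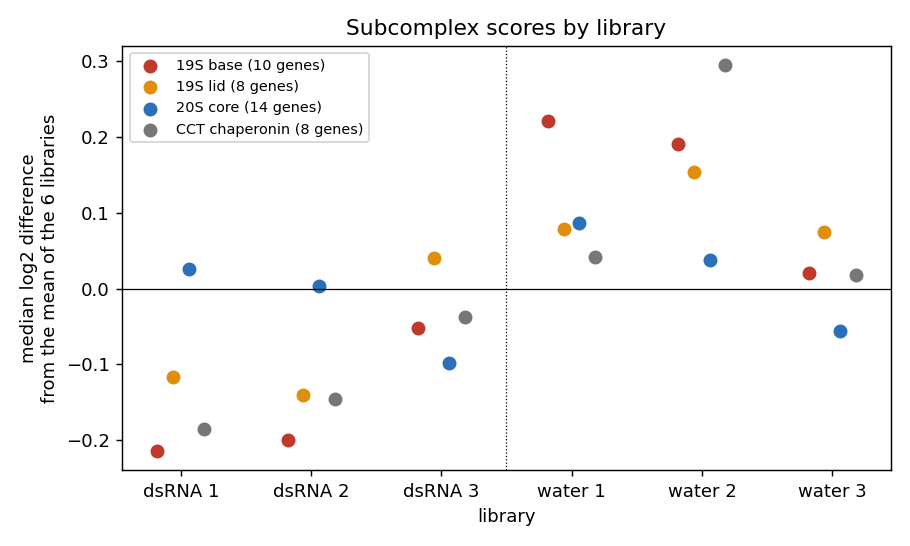
Median of log2 values centred on each gene's mean, by library, for the 10 base, 8 lid and 14 core genes and for the 8 CCT chaperonin genes; each point is 1 subcomplex in 1 library, with dsRNA libraries left of the dotted line. The base lies below 0 in the 3 dsRNA libraries and above 0 in the 3 water libraries, while the core lies between −0.10 and 0.09.

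The same can be put as a ratio of summed normalised counts. Base transcripts summed to 0.270, 0.272 and 0.306 of core transcripts in dsRNA replicates 1, 2 and 3 and to 0.318, 0.331 and 0.317 in water replicates 1, 2 and 3, without overlap. Lid transcripts summed to 0.203, 0.206 and 0.226 of core transcripts in dsRNA libraries and to 0.225, 0.241 and 0.233 in water libraries, where dsRNA replicate 3 passed water replicate 1. With 3 libraries per group the smallest p of an exact permutation test is 0.1, and no such test was made.

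The subcomplexes also differed in repeatability. The median within-group SD on the log2 scale was 0.13 in the base, 0.17 in the lid and 0.07 in the core, against 0.24 over all genes and 0.11 over the 4781 genes with at least the mean level of Rpn11. The beta ring was the most repeatable at 0.06. Leaving out water replicate 2, the base stood at 0.12, the lid at 0.13 and the core at 0.08. Core genes other than Prosalpha1 also had higher levels than most 19S genes, and the part of level in repeatability was not tested.

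Gene structure and level went with the log2 fold change across members. Core genes are short, with 815 to 1215 bp of exon, whereas base genes have 1404 to 3412 bp and lid genes 995 to 1945 bp. Across the 31 members other than Prosalpha1, the log2 fold change had a Spearman rho of −0.61 with exon length and of 0.77 with level per kilobase, as descriptions over genes that share the same 6 libraries. Within the 18 19S genes the same values were −0.12 and 0.39. Over all 9014 genes with a length, rho with exon length was −0.10, and the median log2 fold change lay between −0.04 and 0.01 in each of 6 classes of exon length. By mean level, the medians of all genes in 5 classes were 0.09 in the lowest, then −0.07, −0.03 and 0.01, and 0.02 in the highest. The part of length or level in the difference between subcomplexes was not tested further.

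The markers of stage and maternal RNA moved with some of these libraries. The 17 maternal markers stood at −0.22, −0.03 and 0.10 in dsRNA replicates 1, 2 and 3 and at −0.10, 0.35 and −0.06 in water replicates 1, 2 and 3 (median centred log2 value). Their summed normalised counts ranged from 134127 to 178569 in dsRNA libraries and from 157534 to 236879 in water libraries. These sums rest mostly on CycB and smg, which stood at 99005 and 75576 in water replicate 2, where the sum was 236879. The 12 blastoderm markers stood at 0.36, 0.18 and −0.18 in dsRNA libraries and at 0.01, −0.43 and 0.10 in water libraries. Their sums were 223312 to 348533 in dsRNA libraries and 199463 to 270002 in water libraries. Of these sums slam alone made up 197410 in dsRNA replicate 1, the highest, and 110289 in water replicate 2, the lowest. The 12 genes listed as markers of later embryos stood at −0.45, −0.03 and 0.42 in dsRNA libraries and at 0.03, −0.61 and 0.48 in water libraries. Their sums were 1806 to 3047 in dsRNA libraries and 2547 to 3456 in water libraries, so that both libraries numbered 3 were high. All 12 were detected in every one of these late blastoderm libraries, and they did not move as 1 set. Water replicate 2 held less of 8 of them and more of the other 4 than both other water libraries. By the same measure the base stood at −0.21, −0.20 and −0.05 in dsRNA libraries and at 0.22, 0.19 and 0.02 in water libraries. The part of stage or of maternal RNA in the 19S values was not tested.

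Positions brought together a few members. The 32 genes lie on all major arms, with 10 on 2R, 9 on 3R, 5 on 3L, 4 on 2L and 4 on X in the BDGP6 annotation. Rpn9 and Rpt5, both without overlap between groups, lie 19.4 kb apart on 3R, and Rpn12 and Prosbeta6, both near 0, lie 25.4 kb apart on 3L. Exons of 13 members are overlapped by an exon of a protein-coding gene on the other strand, over 0.0615% to 15.7% of their exon length. Rpn9 had the largest overlapped share. Reads that lie on both genes of such a pair cannot be assigned to 1 of them unless the counting used strand. Ambiguous reads, 0.72% to 0.75% of the table's reads, were kept out of all genes. The levels of these members may thus be understated, and the part lost in that way was not tested.

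Most duplicates of subunit genes, which in adults are known mainly from the testis, were outside the list of measured genes: 4 of 16 were listed. Rpt3R (CG9475) stood at 71.6, 77.7 and 61.4 in dsRNA libraries and at 68.0, 48.9 and 74.5 in water libraries, against 1973 to 3131 for Rpt3. Prosbeta2R2 stood at 8.18 to 12.6 in dsRNA libraries and at 5.15 to 13.9 in water libraries, and Rpt6R at 2.13 to 5.59 in dsRNA libraries and 2.98 to 5.29 in water libraries. None of them had an unadjusted p under 0.05, and 0 of 4 duplicates passed the limma threshold in either direction.

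Of 23 genes that serve the proteasome, 22 were listed, 0 passed the limma threshold in either direction, and their median log2 fold change was −0.03. Assembly factors and activators lay near 0 (5 listed, median −0.03), among them Pomp, the chaperone of core assembly, at −0.005 ± 0.08 (SE), and Sem1, the smallest lid subunit, at −0.11 ± 0.17 (SE). The 11 genes of ubiquitin and substrate handover had a median of −0.12, and 10 of their values were negative. The most negative were Ubi-p63E (log2 −0.47 ± 0.33, SE, and −0.19 without dsRNA replicate 1) and Ubi-p5E (log2 −0.38 ± 0.24, SE, and −0.16 without water replicate 2), both with overlapping groups. In the handover of substrates, TER94 (CG2331), the p97 ATPase that unfolds ubiquitin-tagged proteins, stood at 20862, 19480 and 21095 in dsRNA libraries and at 25246, 24814 and 22375 in water libraries. These groups did not overlap, as in 3.36% of all genes (log2 −0.24 ± 0.06, SE; limma adjusted p = 0.999).

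Uba1, the enzyme that activates ubiquitin, stood at 4577, 4764 and 5679 in dsRNA libraries and at 5513, 6320 and 6046 in water libraries, with overlap (log2 −0.26 ± 0.10, SE). Usp14, a deubiquitinase that binds Rpn1, stood at 1654, 1681 and 1894 in dsRNA libraries and at 1912, 2387 and 1953 in water libraries, without overlap (log2 −0.25 ± 0.11, SE, and −0.15 without water replicate 2). Uch-L5, the deubiquitinase that binds Rpn13, was at −0.04 ± 0.06 (log2, SE). Among 6 regulators of proteasome genes, 2 had negative values and the median was 0.05, with Keap1, the inhibitor of cnc, at 0.15 ± 0.21 and Pngl at 0.14 ± 0.12 (log2, SE). Keap1 stood at −0.10 without water replicate 2. The transcription factor cnc, of the Nrf family that in mammals drives proteasome genes, stood at 1097, 1247 and 1758 in dsRNA libraries and at 1357, 3017 and 1913 in water libraries. Water replicate 2 was its highest library and the groups overlapped (log2 −0.57 ± 0.31, SE, and −0.27 without water replicate 2).

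The CCT chaperonin, another large ring complex of the cytoplasm, was set beside the proteasome. Its 8 genes had a median log2 fold change of −0.19, 4 of 8 had lower, non-overlapping dsRNA groups (3.36% of all genes did), and 0 passed the limma threshold in either direction. CCT4 stood at 2971, 2975 and 3206 in dsRNA libraries and at 3505, 3600 and 3443 in water libraries (log2 −0.21 ± 0.06, SE), and CCT5 had a log2 fold change of −0.32 ± 0.13 (SE). CCT7 was at −0.33 ± 0.15 (SE). Without water replicate 2, in which both were highest, CCT5 stood at −0.20 and CCT7 at −0.17. Per library the CCT genes stood at −0.19, −0.15 and −0.04 in dsRNA replicates 1, 2 and 3 and at 0.04, 0.30 and 0.02 in water replicates 1, 2 and 3. Like those of the 19S base, the CCT values were thus below 0 in the 3 dsRNA libraries and above 0 in the 3 water libraries, and no difference between both complexes was tested.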

How the data were processed

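The deposited table holds a normalised signal per gene from TruSeq poly(A) libraries of whole embryos. Per the submitters' processing notes, the build was dm3 and the tools included DESeq, HTSeq, Bowtie2 and TopHat2 version 2.0.9. No source used here gives the annotation release or strand setting. In every library 100% of the authors' values minus 1 were whole multiples of 1 step (tolerance 0.01 read), so each signal is a read count divided by a library factor, plus 1; these factors matched size factors computed by median of ratios (ratio 1.00). The 1 was subtracted, giving normalised counts, and reads per gene were recovered from the steps. Rows that name no gene (12.4% to 14.8% not unique, 0.72% to 0.75% ambiguous, 4.32% to 4.91% outside genes) were left out.

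Groups and replicate numbers came from sample titles. Log2(normalised count + 1) was fitted over all 9073 genes with limma 3.58.1 (trend, robust) in R 4.3.3, Benjamini-Hochberg adjusted, threshold 0.05; a minimum mean of 1 removed 0 genes. Fold changes on this scale understate those of genes with few reads. Alternatives were a replicate block, a pseudocount of 10, a mean of at least 5 CPM, TMM and upper-quartile scaling, limma-voom and leaving out each library. Counts within replicate numbers, and leaving out libraries for pathway and CCT genes, were added after seeing the data.

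The labels do not say what a shared replicate number means. Deviations of same-numbered libraries from their group means correlated at 0.24, 0.37 and 0.22 across genes, over the 0.1 set for pairing. Other pairs correlated at −0.38 to 0.11. The standard errors, intervals and p-values printed for single genes are nonetheless of the fit without a replicate block. With the block, the SE was 0.04 instead of 0.08 for Prosalpha4 and 0.04 instead of 0.06 for Prosbeta6. For Rpn11 it was 0.20 instead of 0.28, for Rpn2 it stayed at 0.08, and for Rpt3 it rose from 0.11 to 0.12. Replicates differed by a chi-square of 16.5 to 87.7 per degree of freedom over genes, so none was a copy. Symbols came from a RefSeq gene table (9027 of 9073 matched); exon lengths (unions over transcripts) and positions from the BDGP6 annotation, whose build differs from dm3; no coordinate was converted. The members and lists were chosen with earlier results of these data known. Named in full were the 3 highest and lowest log2 fold changes, members without overlap between groups, and the extremes per length; other genes were chosen after their values were seen. Low read counts limit the precision for Prosalpha1 and the duplicates. Rpn11 rests on 231 to 686 reads per library and Sem1 on 171 to 303, and the part of counting error there was not tested.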

Additional observations from a re-analysis of the deposited data

How the results depend on the processing

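Under each alternative listed with the processing, 0 members passed the threshold (31 members were tested with a mean of at least 5 CPM, 32 otherwise), and the lowest adjusted p of any member was 0.602 (limma, without dsRNA replicate 3). With the replicate block the number of all genes past the threshold was 0 instead of 1, the block had 0 members past it and 13 lower at an unadjusted p under 0.05 (2.66% of all genes, against 1.2% without the block), and it changed no other call. On leaving out 1 library the number of genes past the threshold was 0 to 4, with 4 without water replicate 2. Members without overlap between groups were 11 to 20 on leaving out 1 library, with 20 without water replicate 3, while lower genes without overlap were 5.01% to 14.4% of all genes; without dsRNA replicate 3, 14 members were lower and 1 was higher (15.0% of all genes were higher). Members without overlap were 10 with TMM scaling, where 2.57% of all genes were lower without overlap. They were 11 with upper-quartile scaling, where 2.88% of all genes were. All of these members were lower, while under both scalings more of all genes were higher without overlap than lower. The median log2 fold change stayed between −0.42 and −0.31 in the base, −0.23 and −0.20 in the lid and −0.09 and −0.006 in the core on leaving out 1 library. It was −0.33, −0.19 and −0.02 with TMM and −0.32, −0.17 and −0.009 with upper-quartile scaling, which moved the median of all genes by 0.02 and 0.03. Without Prosalpha1, an alternative added after seeing the data, the core median was −0.04. With upper-quartile scaling 4 members turned sign, Rpn13, Prosalpha6, Prosbeta1 and Prosbeta6, and on leaving out 1 library 1 to 5 did, among them Prosalpha6 and Prosalpha7. Prosbeta6 stood at 0.0065 with TMM, 0.021 with upper-quartile scaling and between −0.051 and 0.035 on leaving out 1 library; Prosbeta1 stood at 0.013 with upper-quartile scaling and between −0.053 and 0.014 on leaving out 1 library. On leaving out 1 library, Prosalpha4 lay between −0.023 and 0.10, Prosalpha1 between −0.47 and 0.24 and Rpn11 between −0.39 and 0.15. The cause was not tested. Poly(A) pools of about 50 embryos, with 3 libraries per group, limit what differences of this size can show.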
